A study of Mus musculus with 4 samples.

Results

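Krüppel-like factors (KLF proteins) are transcription factors that share a conserved array of zinc fingers at the C terminus, which binds GC-rich and CACCC sequences, and differ in the N-terminal part that recruits co-activators or co-repressors. In naive T cells KLF2 is known for keeping cells quiescent and for driving the receptors that hold them in circulation between blood and lymph nodes, and several KLF genes are lost or induced quickly when T cells are activated. The 8 genes described here, Klf2, Klf3, Klf4, Klf6, Klf7, Klf10, Klf12 and Klf13, were taken by name from 48858 genes, and each gene's value is the sum over its transcripts.

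RNA was sequenced after rRNA depletion from sorted naive CD4 T cells (gated as TCRb+ CD4+ CD25- CD44-low, among other markers) of 2 DKO and 2 WT mice. The DKO mice carried Btg1f/f Btg2f/f with CD4-Cre, so that both floxed genes are deleted in cells that have expressed Cre from Cd4 regulatory sequences during T cell development. The WT mice were littermate controls with Btg1f/f Btg2f/f and no Cre, so Cre itself is present in the DKO group only, and age and sex are not given in the labels. BTG1 and BTG2 bind the CCR4-NOT deadenylase, which shortens poly(A) tails, and the question set by the series title is how mRNA decay through them relates to T cell quiescence.

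The libraries held 16567226 and 17827631 estimated counts in DKO and 14970076 and 13889894 in WT. The targets checked the labels, with Btg1 at 6.09 and 5.80 CPM in DKO against 532 and 472 CPM in WT, and Btg2 at 0.296 and 0.325 against 93.4 and 92.5 CPM. CPM are TMM-scaled counts relative to library size. Markers of naive CD4 T cells were present in every library (8 of 8 tested, summed level 3277 to 3387 CPM in DKO and 2919 to 3495 in WT). S100a8 had no count in any library, the myeloid list summed to 2.48 to 4.69 CPM in DKO and 3.56 to 4.83 in WT, and the B cell list came almost wholly from Ighm (163 and 146 against 140 and 182 CPM). Markers of regulatory T cells summed to 25.0 and 41.1 CPM in DKO against 9.45 and 9.63 in WT, and Foxp3 had 5.15 and 10.5 against 1.80 and 2.51 CPM. Markers of CD8 T and NK cells summed to 14.1 and 17.1 CPM in DKO against 9.16 and 9.89 in WT. Cd8b1 had 8.58 and 13.0 against 6.78 and 7.46 CPM, Klrd1 had 5.26 and 3.804 against 1.95 and 2.08 CPM, and Cd8a had at most 0.433 CPM in any library. All 4 regulatory T cell markers and both tested CD8 and NK markers were higher in DKO without overlap, as were 19.8% of all tested genes, and 0 passed over all genes. Their part in the results was not tested. DKO library 1 stood apart in Hspa1a, at 145 CPM there against 16.8 in the other DKO library and 3.39 and 14.5 in WT. Hspa1b had 262 CPM there against 31.2 in the other DKO library and 7.36 and 43.2 in WT. The heat shock genes Dnajb1 and Hsp90aa1 were also highest there, by a smaller factor, and Hsph1 was similar in both DKO libraries (34.0 and 31.7 CPM). Protein-coding genes held 44.7% and 48.9% of the counts in DKO against 38.9% and 35.7% in WT. DKO libraries also had longer implied fragments, 133 and 142 bases against 124 and 120 in WT. Both measures separate the groups, and their part in the fold changes was not tested.

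The windows of Klf2, the most abundant member, of Klf6, the member with the largest fold change, and of Klf3, the one with the most GC boxes, show where GC and CACCC boxes, the sequences that KLF proteins bind, do and do not occur. The 250 bases before the RefSeq start of Klf2, Klf3 and Klf6 are printed on the gene's strand, 5′ to 3′ (GRCm38.p6, RefSeq). Capitals mark the GC box GGGCGG, the CACCC box with the letters CCACCC, or an exact palindrome of the MEF2 type. Each was searched on both strands, and no 2 of them overlap in these windows, while in those of Klf4 and Klf13 neighbouring boxes do. The windows are chr8:72318812-72319061 (plus strand), chr5:64803271-64803520 (plus) and chr13:5861239-5861488 (plus).
Klf2: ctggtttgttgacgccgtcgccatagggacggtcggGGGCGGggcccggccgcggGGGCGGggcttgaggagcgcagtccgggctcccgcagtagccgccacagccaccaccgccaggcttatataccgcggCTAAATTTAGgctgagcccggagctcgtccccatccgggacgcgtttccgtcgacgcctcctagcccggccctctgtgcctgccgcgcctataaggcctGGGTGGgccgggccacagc
Klf3: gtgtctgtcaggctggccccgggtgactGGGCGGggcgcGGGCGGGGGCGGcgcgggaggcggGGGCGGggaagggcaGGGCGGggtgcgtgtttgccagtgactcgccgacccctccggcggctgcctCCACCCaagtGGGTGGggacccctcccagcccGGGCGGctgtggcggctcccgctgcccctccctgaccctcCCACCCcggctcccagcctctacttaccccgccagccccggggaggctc
Klf6: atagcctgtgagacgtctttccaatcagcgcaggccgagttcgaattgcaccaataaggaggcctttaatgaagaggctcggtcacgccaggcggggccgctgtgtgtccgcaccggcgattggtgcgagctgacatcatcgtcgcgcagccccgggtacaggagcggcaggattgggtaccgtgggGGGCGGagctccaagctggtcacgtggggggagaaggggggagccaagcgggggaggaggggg
The Klf2 window had 2 GC boxes, 1 CACCC box and 1 MEF2-type sequence, whose first base lies 118 bases before the RefSeq start. MEF2 factors downstream of the kinase ERK5 are known regulators of Klf2, and the exact 10-base sequence occurs in 0.0396% of 32851 such windows. The Klf3 window had 6 GC boxes and 3 CACCC boxes, and the Klf6 window had 1 GC box and no CACCC box. By GENCODE M21 the longest listed transcripts of Klf2, Klf3 and Klf6 begin at bases 72319033, 64803388 and 5861482, inside their windows. The CACCC boxes of Klf2 and Klf3 and the last GC box of Klf3 lie after those starts, within the transcripts. Windows were found for 7 of the 8 genes. Of these, 6 held a GC box and 4 a CACCC box, against 32.7% and 28.1% of all windows. The GC content of the 7 windows ranged from 48.0% for Klf12 to 78.4% for Klf3. That of all windows is not given here, and the part of base composition in the contrast was not tested.

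Because the study concerns mRNA destabilisation, AU-rich words were counted in the 3′ UTR of the longest listed protein-coding transcript of each gene. ATTTA is the core of AU-rich elements, which recruit decay factors. It occurred 7 times in Klf6 (3111 bases of 3′ UTR), 7 times in Klf3 (3743), 18 times in Klf7 (6266), 4 times in Klf10 (1492) and 3 times in Klf13 (5157). Klf2 (737) and Klf4 (982) had 1 each, and the listed Klf12 transcript (647) had none. The median over 10632 tested genes was 2 in a median 3′ UTR of 1201 bases, so Klf6, Klf3 and Klf7 had many words in long UTRs. The longer word TATTTAT was present in 4 of the 8, against 30.9% of those genes, and the nonamer TTATTTATT in none, against 8.52%. The 5 TATTTAT sites are printed with flanks, the word in capitals, by the position of its first base in the 3′ UTR.
Klf2 base 80: cagactgcTATTTATtggacctt
Klf6 base 1218: acgtctctTATTTATgccttgag
Klf6 base 1671: accggctgTATTTATtatgtaac
Klf7 base 5912: ttctctggTATTTATaatatatc
Klf10 base 968: tgtcttttTATTTATaggagttt
These are matches of letters only. Klf2 thus had a short 3′ UTR with a single TATTTAT word near its beginning, and Klf6 had a pair.

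The 8 genes fell into tiers of level. TPM is set per transcript length and can be compared between genes. Klf2 was the highest, at 16.8 and 20.7 TPM in DKO and 13.2 and 14.8 TPM in WT. Klf6 had 5.38 and 5.40 TPM in DKO and 7.11 and 4.85 in WT. Klf13 had 5.21 and 5.77 TPM in DKO and 4.69 and 3.79 in WT. Klf6 and Klf13 overlapped in DKO and lay next to each other in WT. Klf3 had 3.62 and 4.71 TPM in DKO and 3.41 and 2.58 in WT, below Klf13 in both groups. Klf7 had 0.847 and 0.949 TPM in DKO and 0.591 and 0.374 in WT. Near the bottom, Klf10 had 0.130 and 0.217 TPM in DKO and 0.177 and 0.129 in WT. Klf4 had 0.132 and 0.122 TPM in DKO and 0.110 and 0.0761 in WT, overlapping Klf10 in DKO and below it in WT. Klf2 alone made up 52.4% and 54.7% of the summed TPM of the 8 genes in DKO and 45.0% and 55.6% in WT, while Klf6 made up 16.7% and 14.2% against 24.3% and 18.3%.

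**Figure D1:**
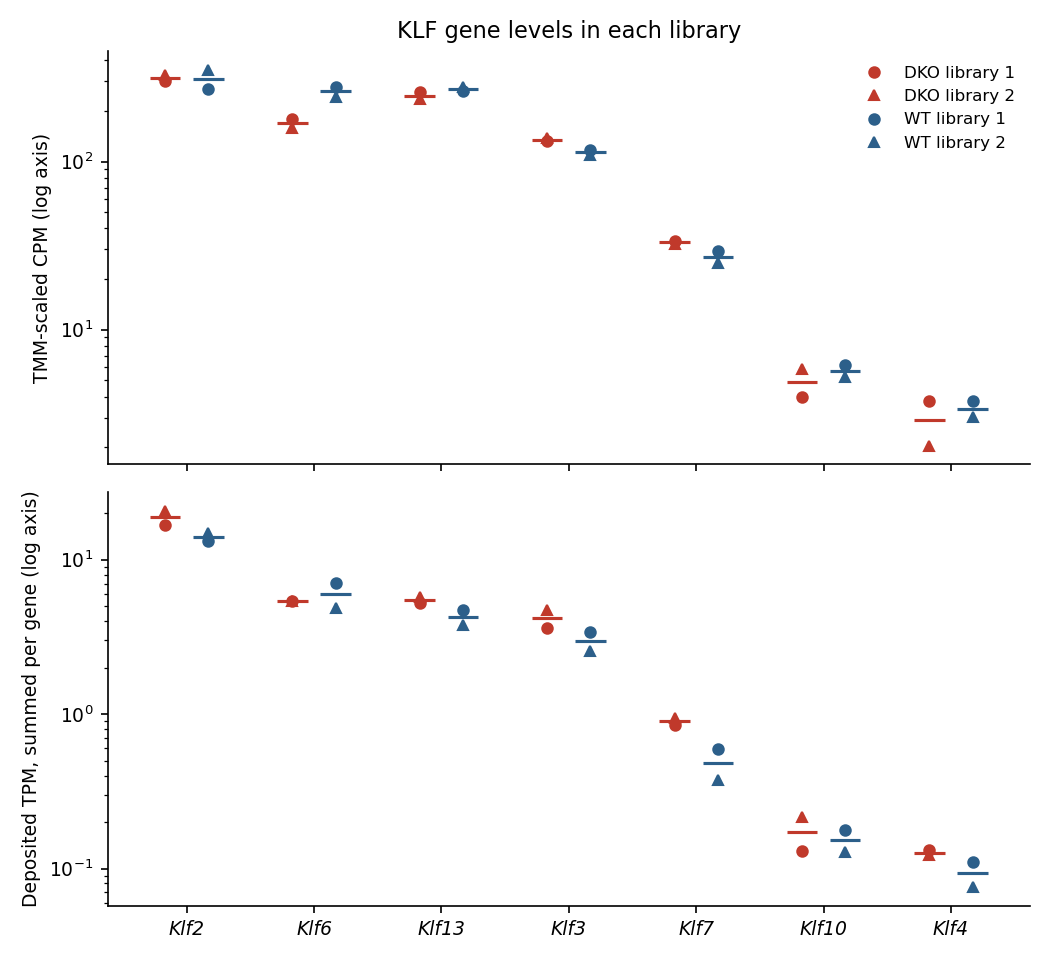
Level of 7 KLF genes in each library on log axes, as TMM-scaled CPM (top) and deposited TPM (bottom), with DKO left of WT; points are libraries and bars are means of 2. Klf6 is lower in both DKO libraries in CPM (179 and 159 against 279 and 243) but overlaps in TPM, and Klf12 had no counts and is not drawn.

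Across genotypes 0 of the 7 tested members passed in edgeR at an adjusted p of 0.05 (Benjamini-Hochberg over 12863 genes), where 0.124% of the genes passed, 0.0544% as higher and 0.07% as lower. At an unadjusted p below 0.05, 1 member passed, Klf6 as lower, against 8.18% of the genes in either direction and 4.35% as lower. DESeq2 also called Klf6 alone among the members, against 1.46% of the genes, 0.428% as higher and 1.03% as lower. Under TMM, 4 members did not overlap between groups, 2 above WT (Klf3 and Klf7) and 2 below (Klf6 and Klf13). Over all tested genes 38.6% did not overlap, 19.8% as higher and 18.8% as lower. The median log2 fold change of the 7 was −0.12, against −0.01 for all genes tested. For 1 gene in 4 libraries the smallest p of a two-sided exact permutation test is 0.333, so the p-values here come from fits across genes.

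Klf6 (ENSMUSG00000000078; GRCm38 chr13:5861482-5870394, plus strand) encodes a broadly expressed activator that is induced early in many cell types after stimulation. It had 179 and 159 CPM in DKO against 279 and 243 CPM in WT, from 3026 and 3419 against 3874 and 2805 counts. Both DKO libraries were below both WT libraries. The level was 169 ± 14.4 CPM in DKO and 261 ± 25.5 CPM in WT (SD, n = 2 each), 0.646 of WT, with a log2 fold change of −0.63 (SE 0.15, 95% interval −0.97 to −0.29). It did not pass over all genes (adjusted p = 0.218 by edgeR), and by its p it ranked 152 among the genes tested. It was called by DESeq2 (adjusted p = 0.0129) and by edgeR with no filter on low counts (adjusted p = 0.0219, where 1.52% of genes were called, 0.98% as lower). On nuclear protein-coding genes alone, where 0.48% were called, 0 members passed. The other settings in the plot of fold change by processing choice gave adjusted p from 0.0827 to 1. The sign depended on the scaling, with −0.30 under total counts and 0.26 when polymerase III transcripts set the scale. Across all genes the median moved to 0.33 and 0.90 in these fits, and relative to that median Klf6 lay at −0.63 and −0.65, against −0.62 under TMM. Subtracting the median largely undoes a change of scaling, so these values add little to that under TMM. In limma on log2(TPM + 1) Klf6 was −0.11, or −0.19 relative to the median, the weakest of the 14 alternatives by that measure. In bulk RNA, fewer cells with a transcript and less RNA per cell cannot be told apart.

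**Figure D2:**
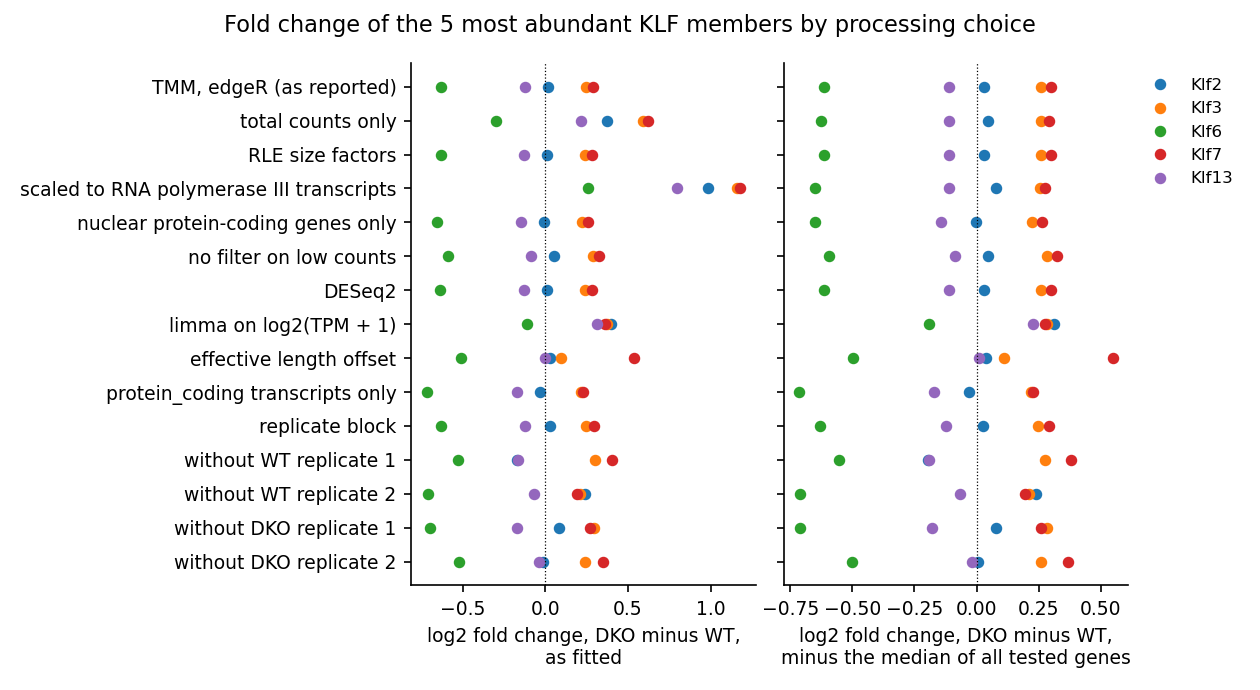
Log2 fold change, DKO minus WT, of the 5 most abundant members (colours) under TMM and each alternative (rows), as fitted (left) and after subtracting the median of all tested genes (right). Klf6 lies at −0.63 as reported and at 0.26 under polymerase III scaling on the left, and below 0 in every row on the right. Rows reuse the same libraries, and subtracting the median largely undoes a change of scaling, so they are not independent.

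Ratios of counts within a library do not depend on the scaling of library sizes, but they can on the length correction. The Klf6 count was 1.36 and 1.16 times that of Klf3 in DKO against 2.37 and 2.23 times in WT. On the log2 scale the difference was −0.88, with a pooled SD of 0.125. The Klf6 to Klf7 ratio was 5.28 and 4.93 in DKO against 9.56 and 9.77 in WT (log2 difference −0.92, pooled SD 0.051). The Klf6 to Klf13 ratio was 0.694 and 0.673 against 1.07 and 0.880 (−0.50, pooled SD 0.142). The Klf6 to Klf2 ratio was 0.592 and 0.488 against 1.04 and 0.690 (−0.66, pooled SD 0.326). The Klf6 to Klf10 ratio was 45.16 and 27.35 against 45.58 and 46.75 (−0.39, pooled SD 0.362), so the groups were only just apart. Klf6 was lower in DKO without overlap in 5 of 6 such ratios, the exception being that to Klf4. All of them share the Klf6 count and are not independent. The share of gene pairs in general with ratios that separate the groups was not computed. Of single genes, 38.6% of all tested did not overlap under TMM. Klf6 was the member with the largest fold change, so the count of ratios is no separate support. The exact two-sided permutation p was 0.333 for each of the 5 ratios, the smallest possible. A true difference in a ratio would mean unequal change of its genes and would not say which of them changed. Against Klf2 the difference was −0.36 without WT replicate 1. With TPM in place of counts, a setting added after the data were seen, the differences were −0.60 against Klf3, −1.06 against Klf7, −0.50 against Klf13 and −0.55 against Klf2.

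**Figure D3:**
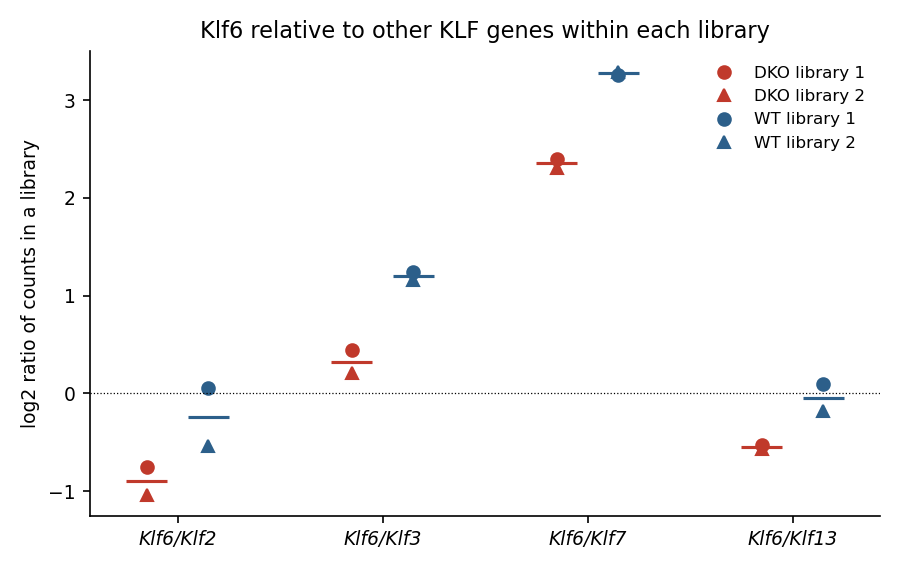
Log2 ratio of Klf6 counts to those of Klf2, Klf3, Klf7 and Klf13 within each library, with DKO left of WT; points are libraries and bars are means of 2. The DKO points lie below the WT points in all 4 ratios, with log2 differences of −0.66, −0.88, −0.92 and −0.50. All 4 share the Klf6 count and are not independent.

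Values of other early response genes stand beside those of Klf6. Of 9 in the list, 8 were tested, with a median log2 fold change of −0.37; 0 passed over all genes, and 1 was higher and 4 lower at an unadjusted p below 0.05, where 8.18% of all tested genes passed in either direction and 4.35% as lower. Junb, an AP-1 subunit, had 330 and 229 CPM in DKO against 525 and 611 in WT (log2 −1.02, adjusted p = 0.146 by edgeR; called by DESeq2 with adjusted p = 0.000254, and from 9.498e-07 to 1 over its alternatives). Fosb, another AP-1 subunit, had 9.40 and 12.1 CPM against 15.001 and 16.4, and Ier2, an early response nuclear protein, had 52.1 and 42.4 against 55.6 and 71.7. Both were without overlap below WT. Egr1, a zinc finger factor induced by receptor signalling, had 55.7 and 69.3 CPM against 36.7 and 50.8, without overlap above WT. Its log2 fold change of 0.52 was 0.30 without WT replicate 1 and 0.78 without WT replicate 2. The summed level of the list was 1090 and 861 CPM in DKO against 1270 and 1598 in WT. Junb and Jun held most of it, with Jun at 377 and 268 CPM in DKO against 402 and 506 in WT. Fos (162 and 114 against 111 and 187 CPM) and Nr4a1 (39.2 and 51.0 against 49.4 and 57.2 CPM) overlapped between groups. The part of these values in the Klf6 difference was not tested.

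Of the Klf6 counts, 94.2% and 94.4% in DKO and 95.1% and 97.3% in WT lay on the main protein-coding transcript of 4225 bases. A retained-intron transcript of 799 bases held 161 and 168 counts in DKO and 164 and 66.2 in WT. On protein-coding transcripts alone the log2 fold change was −0.72 (adjusted p = 0.108 by edgeR). No 31-base word of Klf6 occurs in another gene's listed transcripts. With an effective length offset the fold change was −0.51, and in TPM the groups overlapped, with 5.39 ± 0.0146 TPM in DKO and 5.98 ± 1.60 in WT (SD, n = 2 each). In TPM, 48.1% of all tested genes were higher in DKO without overlap and 5.46% lower, and 5 of the 8 members were higher, Klf2, Klf3, Klf4, Klf7 and Klf13.

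Klf2 (ENSMUSG00000055148; GRCm38 chr8:72319033-72321656, plus strand), the quiescence factor, had 302 and 325 CPM in DKO against 269 and 352 CPM in WT, from 5112 and 7009 against 3730 and 4064 counts. The DKO values lay between the WT values. The log2 fold change was 0.01 (SE 0.17) with a 95% interval of −0.38 to 0.41 under TMM. Under other scales it was 0.37 with total counts, 0.98 with polymerase III transcripts (adjusted p = 0.0595 by edgeR) and 0.40 in limma on log2(TPM + 1), or 0.045, 0.078 and 0.31 above the median of all genes. In TPM both DKO libraries were above WT. Under TMM the fold change turned to −0.17 without WT replicate 1 and was 0.24 without WT replicate 2. Klf2 has 1 annotated transcript and shares no 31-base word with another gene.

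Klf3 (ENSMUSG00000029178; GRCm38 chr5:64803388-64832901, plus strand) encodes a repressor that recruits CtBP. It had 132 and 137 CPM in DKO against 118 and 109 CPM in WT, and both DKO libraries were higher. The log2 fold change was 0.25 (SE 0.13, adjusted p = 0.684 by edgeR), and it was above 0 in all 14 alternatives, from 0.096 with an effective length offset to 1.16 under polymerase III scaling. The protein-coding transcript of 5221 bases, which spans the whole gene, held 81.7% and 78.5% of its counts in DKO and 79.9% and 76.9% in WT. A protein-coding transcript of 1562 bases, which begins inside the gene at base 64812339, held 14.9% and 15.1% against 10.5% and 16.3%. The shares of this second transcript overlapped between groups.

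Klf7 (ENSMUSG00000025959; GRCm38 chr1:64029447-64122282, minus strand) encodes a close relative of KLF6. It had 33.9 and 32.1 CPM in DKO against 29.2 and 24.9 CPM in WT, also without overlap and with both DKO libraries higher. Its log2 fold change was 0.29 (SE 0.14, adjusted p = 0.664 by edgeR), and it was 0.19 without WT replicate 2 and 0.54 with an effective length offset. Klf6 and Klf7 therefore lay on opposite sides of 0 under TMM, whereas under polymerase III scaling both lay above it.

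Klf13 (ENSMUSG00000052040; GRCm38 chr7:63886351-63938915, minus strand), known in T cells as an activator of the chemokine gene Ccl5 late after stimulation, had 258 and 236 CPM in DKO against 261 and 277 CPM in WT. Under TMM the DKO libraries were lower by a small margin. The log2 fold change was −0.12 (SE 0.14, adjusted p = 0.895 by edgeR), and it was 0.22 under total counts. It was −0.0023 with an effective length offset and 0.31 in limma on log2(TPM + 1), or 0.23 relative to the median. In TPM both DKO libraries were above WT, as for 48.1% of all tested genes. At least 96.3% of its counts lay on the protein-coding transcript of 6396 bases in every library.

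Klf4 (ENSMUSG00000003032; GRCm38 chr4:55527143-55532466, minus strand) restrains the proliferation of T cells and is abundant in myeloid cells. It had 64 and 44 counts in DKO and 52 and 35 in WT, or 3.79 and 2.04 against 3.75 and 3.04 CPM, with overlap. As a share of all counts in the library, these were 3.86 and 2.47 CPM without TMM scaling in DKO, with exact (Clopper-Pearson) 95% intervals of 2.98 to 4.93 and 1.79 to 3.31, and 3.47 and 2.52 CPM in WT, with intervals of 2.59 to 4.55 and 1.75 to 3.50. The log2 fold change was −0.23 with a 95% interval of −1.19 to 0.73, and it turned to 0.18 without DKO replicate 2. Intervals on counts cover counting error only.

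Klf10 (ENSMUSG00000037465; GRCm38 chr15:38291463-38300706, minus strand), a repressor gene induced by TGF-β, had 3.96 and 5.80 CPM in DKO against 6.13 and 5.20 CPM in WT, with overlap (log2 −0.21, 95% interval −0.89 to 0.47). It was 0.05 without DKO replicate 1. The tables used here list 1 of the 6 transcripts that GENCODE M21 has for Klf10, so the level covers that transcript of 3045 bases alone. Klf12 (ENSMUSG00000072294; GRCm38 chr14:99870632-100284679, minus strand), a CtBP-dependent repressor, likewise has 1 of 6 transcripts listed, of 1856 bases, which had 0 counts in every library. A count of 0, taken as at most 3 counts of the library total, allows up to 0.181 and 0.168 CPM in DKO and 0.2 and 0.216 in WT for this transcript, and nothing is said of the other transcripts, which were not analysed here.

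Of the 18 other genes of the KLF and SP family, 8 were tested and 0 passed over all genes, with a median log2 fold change of 0.05; 5 had no count in any library. Sp3 and Sp1, ubiquitous GC-box factors, had 116 and 102 CPM against 98.9 and 108 CPM, and 56.7 and 51.4 against 50.2 and 42.7 CPM, in DKO and WT. Sp2 had 40.5 and 40.6 CPM against 33.7 and 46.1, and Sp4 had 45.9 and 37.2 against 51.3 and 44.8. Sp1 alone of these 4 did not overlap, with both DKO libraries higher. Of the other tested family genes, Klf16 and Sp6 also lay above WT without overlap and 0 lay below. All tested genes had 19.8% above and 18.8% below. Klf16 had 9.76 and 10.4 CPM in DKO against 8.29 and 9.28 in WT, Klf11 had 6.09 and 5.10 against 7.86 and 5.38, and Klf9 had 2.19 and 1.95 against 2.96 and 1.30. Sp6, a factor known from epithelium, had 1.66 and 2.46 CPM in DKO against 0.721 and 0.173 CPM in WT (log2 2.15, SE 0.76, adjusted p = 0.494 by edgeR), the largest fold change among the 8 tested and one that rests on 28 and 53 counts in DKO against 10 and 2 in WT, with 3.52 without WT replicate 1 and 1.52 without WT replicate 2.

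**Figure D4:**
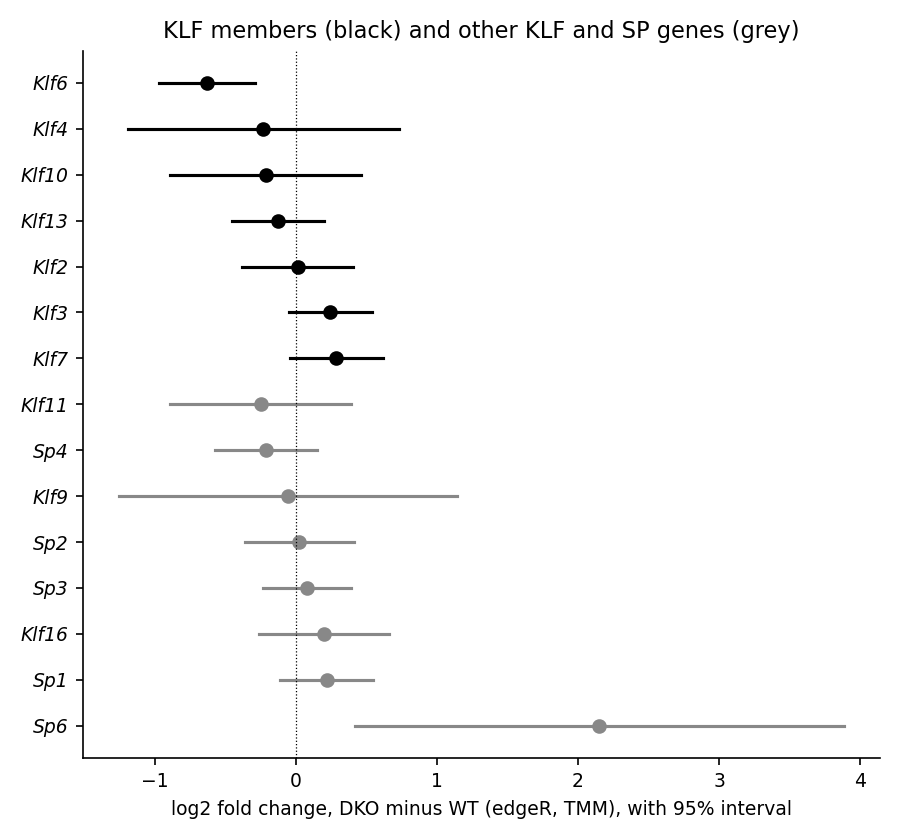
Log2 fold change, DKO minus WT, with its 95% interval from edgeR under TMM for the 7 tested members (black) and 8 other KLF and SP genes (grey). Among the members the interval of Klf6 (−0.97 to −0.29) is the one that leaves out 0, and none passed after adjustment over all genes.

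The genes that KLF proteins work with were read from 7 lists of 47 genes, of which 41 were tested and 0 passed over all genes. At an unadjusted p below 0.05, 3 were higher and 0 lower by edgeR, and the median log2 fold change was 0.13, against −0.01 for all tested genes. Of the 41, 19 lay without overlap above WT and 3 below, where all tested genes had 19.8% and 18.8%. Counted by list, the median was between 0.04 for the ubiquitin ligases and 0.15 for the TGF-β pathway.

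Of the 9 listed KLF2 targets, 5 were tested and 0 passed; 3 lay without overlap above WT, as did 19.8% of all tested genes. S1pr1, the receptor for exit from lymph nodes, had 239 and 253 CPM in DKO against 182 and 196 CPM in WT (log2 0.38, SE 0.14, adjusted p = 0.506 by edgeR). S1pr4, a related receptor, had 32.9 and 32.4 CPM against 19.2 and 27.3 (log2 0.49, SE 0.18), and its fold change was 0.26 without WT replicate 1 and 0.78 without WT replicate 2. Both receptors were without overlap above WT. Both were called by edgeR under total counts (adjusted p = 0.0454 for S1pr1 and 0.0390 for S1pr4) and under polymerase III scaling (0.0246 and 0.0374), where the median of all genes was itself above 0.

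Upstream of Klf2, Foxo1, which activates it, had 166 and 172 CPM in DKO against 167 and 181 CPM in WT, with overlap. Mapk7, which encodes ERK5, had 7.57 and 9.88 CPM against 4.04 and 7.03 (log2 0.67, SE 0.31). Its fold change was −0.0088 with an effective length offset, 0.32 without WT replicate 1 and 1.13 without WT replicate 2. Map3k2, a kinase of the same cascade, had 40.1 and 42.4 CPM against 38.7 and 28.7. Among ubiquitin ligases, Smurf1, which targets KLF2 for degradation, had 27.3 and 28.1 CPM against 22.1 and 18.7 (log2 0.44, SE 0.15, adjusted p = 0.487 by edgeR), and Itch had 46.3 and 29.0 against 47.9 and 40.7.

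In the CtBP and SIN3 co-repressor lists 0 genes passed. Ctbp1, the partner of KLF3 and KLF12, had 56.0 and 51.1 CPM in DKO against 53.9 and 69.8 CPM in WT, with overlap. Kdm1a, a histone demethylase of the CtBP complex, had 36.8 and 35.3 against 28.1 and 32.4. In the SIN3 complex used by KLF10 and KLF13, Sin3a had 89.6 and 94.5 CPM against 85.2 and 81.0, Sin3b had 41.2 and 37.2 against 30.1 and 34.0, and Sap18 had 6.39 and 7.38 against 11.0 and 7.81. Of the acetyltransferases that KLF activators recruit, Crebbp had 308 and 331 CPM against 286 and 269, and Kat2a had 20.9 and 21.2 against 17.02 and 19.2. In the TGF-β pathway that induces Klf10, Tgfbr2, the ligand-binding receptor, had 234 and 248 CPM against 207 and 206, and the inhibitor Smad7 had 105 and 117 against 140 and 121.

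**Figure D5:**
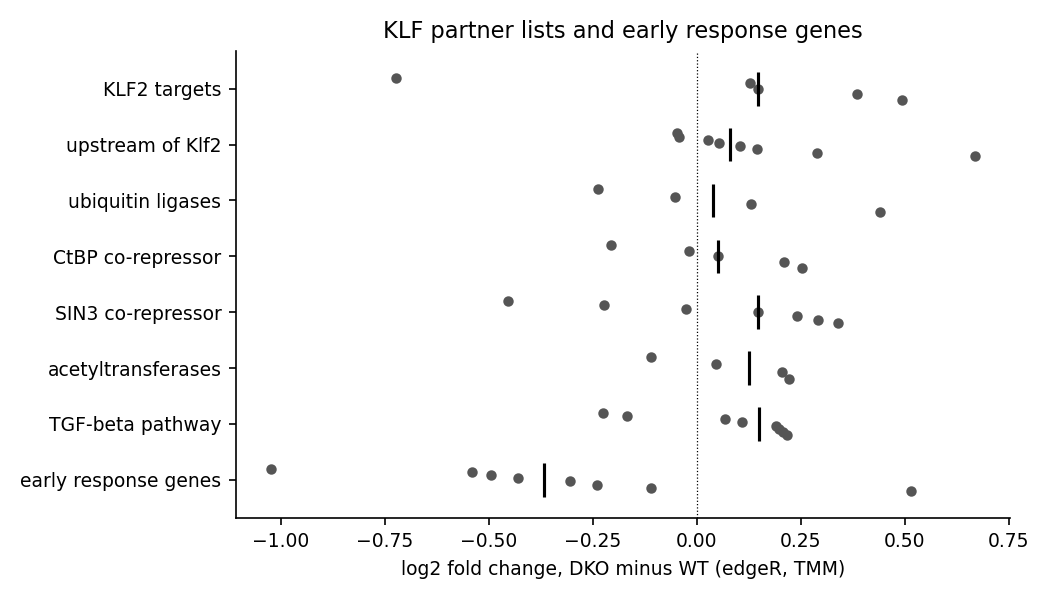
Log2 fold change, DKO minus WT, under TMM of each tested gene in 7 partner lists and the early response list; points are genes and bars are list medians. Partner medians lie between 0.04 and 0.15, and that of the early response genes at −0.37.

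The genes nearest to Klf2 and Klf6 in profile were found among 7288 protein-coding genes by Euclidean distance. Profiles were log2 CPM, with a small constant added, centred over the 4 libraries. For Klf2 they included Trit1 and Ldb1, at 0.018 and 0.028, and 822 genes lay within 0.2. For Klf6 they were Wsb2, Rad9a and Cep44, at 0.061, 0.092 and 0.097, and 25 genes lay within 0.2. With 4 libraries such nearness describes a shape only. The number of near neighbours depends on the size of a gene's own changes, so it adds nothing to the fold changes given above.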

How the data were processed

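Estimated counts per transcript and TPM were made by the authors with kallisto, with the builds mm10 and GRCm38, per the submitters' processing notes. TPM is scaled for effective length by the authors, and the deposited effective lengths are in bases, per the file headers. The sources used here do not give its version, strand setting or annotation. Of 126782 transcripts, 98.7% joined by identifier to GENCODE M21. Their counts were summed to genes and rounded. The 1600 without a gene (0.822% to 0.852% of counts) were left out. The test was edgeR 4.0.16 under R 4.3.3 (filterByExpr, TMM, robust quasi-likelihood F test on genotype, Benjamini-Hochberg over 12863 genes at 0.05). DESeq2 1.42.0 and limma 3.58.1 on log2(TPM + 1) were alternatives. The code was tested on simulated data. SE was taken as |log2 fold change| over root F. AU-rich words and promoter motifs were matched exactly. Mice came in pairs, per the labels' protocols, which do not say which libraries form a pair, so the main fit has no pairing term.

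The members and lists were chosen with earlier results of these data known. Genes named were all members, the targets, defining markers, other KLF and SP genes with at least 1 CPM, up to 4 genes per list with the smallest unadjusted p plus the most abundant, and for Klf2 and Klf6 the 3 nearest protein-coding profiles with at least 5 CPM; a few genes that this rule takes are not reported here. Listed genes on the other strand that overlap Klf3, Klf7, Klf12 and Klf13 had at most 55 counts per library. The highest was the protein-coding gene E030018B13Rik at Klf13. On the same strand, Mir6899 at Klf7 had 0 counts, and C230096K16Rik at Klf3 is not listed, so its reads could not be assessed. At most 2.0% of a member's 31-base words occur in another gene.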

Additional observations from a re-analysis of the deposited data

How the results depend on the processing

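Log2 fold changes of members and named genes follow, where a setting turned their sign. Under total counts, Klf4 was 0.076, Klf10 0.15, Klf13 0.22, Klf9 0.26, Klf11 0.075, Sp4 0.12, Foxo1 0.31, Itch 0.075, Ctbp1 0.14 and Smad7 0.12. Under polymerase III scaling, Klf4 was 0.61, Klf6 0.26, Klf10 0.72, Klf13 0.79, Klf9 0.76, Klf11 0.61, Sp4 0.67, Foxo1 0.89, Itch 0.61, Ctbp1 0.74, Sap18 0.44, Smad7 0.68, Fosb 0.42 and Ier2 0.50. These scalings move the median of all genes to 0.33 and 0.90. Relative to the median of each fit, Klf6 lay below 0 in all 14 alternatives (−0.71 to −0.19), and Klf3 and Klf7 lay above. A change of scaling shifts all genes by about the same amount, so subtracting the median largely undoes it. All alternatives also reuse the same libraries, so this count is not independent support. In limma on log2(TPM + 1), Klf4 was 0.044, Klf10 0.025, Klf13 0.31, Klf9 0.017, Klf11 0.0071, Sp4 0.20, Foxo1 0.22, Itch 0.18, Ctbp1 0.25 and Smad7 0.12. With an effective length offset, Klf4 was 0.098 and Mapk7 −0.0088. On nuclear protein-coding genes alone Klf2 was −0.0094, and on protein-coding transcripts Klf2 was −0.035 and Sp2 −0.022. The cause of these turns was not tested beyond the shift of the median.

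Leaving out 1 library at a time gave −0.17 to 0.24 for Klf2, −0.71 to 0.18 for Klf4, −0.71 to −0.52 for Klf6 and −0.49 to 0.050 for Klf10. Signs also turned among −0.50 to 0.66 for Klf9, −0.48 to 0.053 for Klf11, −0.19 to 0.28 for Sp2, −0.10 to 0.030 for Foxo1, −0.59 to 0.087 for Itch and −0.38 to 0.0063 for Ctbp1. In these fits a group of 1 library is assumed to vary like the other group.

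Klf6 passed with DESeq2 (−0.64, adjusted p = 0.0129) and without the filter (−0.59, adjusted p = 0.0219 by edgeR), so 1 member was called in each, against 0 under TMM. In the partner lists S1pr1 and S1pr4, 2 genes, were called under total counts and 6 under polymerase III scaling, against 0.

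Over all genes, the calls were 7 higher and 9 lower under TMM, 193 and 65 with total counts, 472 and 22 with polymerase III scaling and 35 and 16 on protein-coding genes. They were 141 and 254 with no filter, 55 and 133 with DESeq2, 1 and 4 with limma, 3 and 5 with the length offset and 8 and 5 on protein-coding transcripts. Leaving out 1 library gave 12 to 34 higher and 28 to 131 lower.

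With the replicate number as a block the calls were 53 and 90. Klf9 was 0.052, and 0 members passed (Klf6 −0.63, adjusted p = 0.297 by edgeR). Same-numbered libraries deviated in opposite directions (r = −0.316 across 12863 genes, which are not independent replicates), and the labels do not say that same-numbered mice form the pairs. A crossed pairing, added after this was seen, gave 136 higher and 384 lower and called 1 member.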
